A study of Mus musculus with 6 samples.

Results

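The genes described here encode the machinery that copies DNA in S phase, together with a few regulators that open that phase. They were taken as the rows of the deposited expression table whose gene symbol is on a list of 46 names, and all 46 were present among the 13595 genes of the table. The libraries were made from primary liver cells of C57BL6/J mice aged 4 weeks, selected for CD31, the endothelial surface protein encoded by Pecam1, and grown in culture. Every library, of either sex, comes from cells given 100 µM indoxyl sulfate, hypoxia and nutrient deprivation (6 hours). Indoxyl sulfate is a tryptophan metabolite that activates the aryl hydrocarbon receptor. The 3 libraries labelled male and the 3 labelled female differ by sex alone as far as the labels go, so the question addressed is how the sexes differ under this treatment. The DMSO control named in the design text was not analysed here.

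Chromosomes are copied from many origins. The origin recognition complex (Orc1 to Orc6) marks them, and Cdc6 and Cdt1 then load the ring-shaped Mcm2-7 helicase in G1, a step called licensing. Cyclin E with its kinase, and the Dbf4-dependent kinase, let Mcm10, Cdc45 and the GINS complex switch the helicase on. DNA polymerase alpha with primase starts each strand, polymerases delta and epsilon extend it on the Pcna clamp, and Fen1 and Lig1 join the pieces. Transcription factors of the E2F family, held back by the retinoblastoma protein in resting cells, are known to activate many of these genes. Endothelial cells in adult vessels rarely divide, whereas cultured ones commonly do.

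Between 22303270 and 31189363 reads per library fell on the genes of the table, and 1 read was worth a normalized read count of 0.0353 to 0.0475. The 46 genes held between 47 and 8153 reads in a library, the least being those of Gins3, and all 46 passed the filter on low values (3 or more libraries at 1 or above). The libraries stood apart in ways that touch every result. Xist was at 286 ± 46.7 in the female-labelled libraries and 0.323 ± 0.176 in the male-labelled ones (SD, n = 3). Transcripts of the Y-linked genes Ddx3y, Uty, Kdm5d and Eif2s3y were nevertheless present in every female-labelled library, at 91.5%, 89.6%, 54.8% and 51.3% of the male mean. This goes against the label, so directions below rest on the labels as given. What replicates 4, 5 and 6 stand for (separate mice, cultures or wells) is not in the labels, and p-values therefore measure only the spread between these libraries, which may be technical.

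Cell type markers also moved with the groups. Of 11 endothelial markers tested, 9 were called lower and 1 higher in the female-labelled libraries. The 12 listed summed to a normalized read count of 1159 to 1221 against 2179 to 2274. Most of the female-labelled sum came from Cdh5, Emcn and Eng, with means of 387, 306 and 415. Others were near 0 there: Cldn5 was at 0 in female replicate 4, and Vwf at 0.374 to 0.570 in the female-labelled libraries. Pecam1 itself was at 73.9 ± 0.540 against 407 ± 16.2 (SD, n = 3). Smooth muscle and pericyte markers summed to 2627 to 3344 in the female-labelled libraries and 143 to 302 in the male-labelled ones, with 4 of 7 called higher and 2 lower, and mesothelial markers summed to 361 to 401 against 17.7 to 21.3, with 4 of 4 tested called higher. Stellate cell and fibroblast markers went the other way (975 to 990 against 2775 to 3496, 7 of 9 tested lower and 1 higher), as did cholangiocyte markers (509 to 610 against 1637 to 2484, 3 of 4 lower and 1 higher) and sinusoidal endothelial markers (8.12 to 9.55 against 492 to 531, 3 of 3 lower). Nearly all of the last sum in the male-labelled libraries was Lyve1 (mean 4.98 against 498). Stab2, Clec4g, Fcgr2b, Oit3 and Mrc1 were at most 1.07 in any library, and Stab2 went the other way (mean 0.258 against 0.0658). Macrophage markers summed to 11.8 to 14.1 against 7.30 to 9.57, with 2 of 2 tested higher. Hepatocyte markers summed to 1.95 to 8.22 against 2.49 to 4.23, with 1 tested and higher, and of the 7 lymphocyte markers only Ptprc was listed, at most 0.332. Defining markers listed at 0 throughout a group were Clec4g, Marco, Vsig4, Upk3b and Ptprc in the male-labelled libraries, and Fcgr2b, Cd5l and Ttr in the female-labelled ones. The part of these markers in the results on replication genes was not tested, and in bulk RNA fewer cells of a type, or fewer cells in S phase, cannot be told apart from less RNA per cell.

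Promoters were read first, because E2F sites are the feature these genes are best known to share. RefSeq promoters (build GRCm38.p6, 250 bases before to 50 after each start) were matched by symbol for 38 of the 46 genes. The E2F letters searched, on both strands, were TTTCCCGC, TTTCGCGC, TTTGCCGC and TTTGGCGC, and matches on opposite strands can overlap. They were found for 14 of the 38 genes (36.8%), against 4.56% of the genes of the expression table that have a promoter there and 2.60% of all genes with one. Among genes of mitosis the same letters were found for 1 of 20 (5%). The 4 stretches below were chosen because they carry such letters before the start and belong to genes that were lower, higher, higher and not called in the female-labelled libraries. The stretches are from Cdc6 (chr11:98907987-98908046, plus strand), Orc1 (chr4:108579416-108579445, plus strand), Pola1 (chrX:93632260-93632319, minus strand) and Mcm6 (chr1:128359782-128359841, minus strand), written 5′ to 3′ with E2F letters in capitals, and that of Orc1 is kept shorter because an exon is annotated there.
Cdc6: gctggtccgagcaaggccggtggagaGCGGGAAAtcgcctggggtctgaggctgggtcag
Orc1: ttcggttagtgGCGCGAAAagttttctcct
Pola1: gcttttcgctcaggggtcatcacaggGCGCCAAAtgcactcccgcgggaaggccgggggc
Mcm6: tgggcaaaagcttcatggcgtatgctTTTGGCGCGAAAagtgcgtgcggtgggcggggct
In Mcm6 a match on each strand overlaps the other, so the capitals run on as 1 block. The letters stood in promoters of genes of every direction: 6 of 15 genes called higher, 5 of 11 called lower and 3 of 12 not called. A match describes the letters in this window and is not a measured binding site.

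With limma fitted over all 12568 genes that passed the filter, 31 of the 46 replication genes (67.4%) had an adjusted p under 0.05 and 15 did not, against 69.3% passing among all genes tested, so the share lies near the background. Of the 31, 18 were higher in the female-labelled libraries (background 34.6% of all genes) and 13 lower (background 34.6%). The 3 values of a group did not overlap those of the other for 37 of the 46 genes, against 74.1% of all genes tested. The median log2 fold change, female minus male on the log2(value + 1) scale used throughout, was 0.11 for the 46 genes and 0.01 for all genes, and the median size without sign was 0.37 against 0.46. Without male replicate 4 the medians with sign were 0.06 and 0.03. Only Cdc6 both passed the threshold and had a log2 fold change of at least 1 in size, where 20.6% of all genes tested did.

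**Figure D1:**
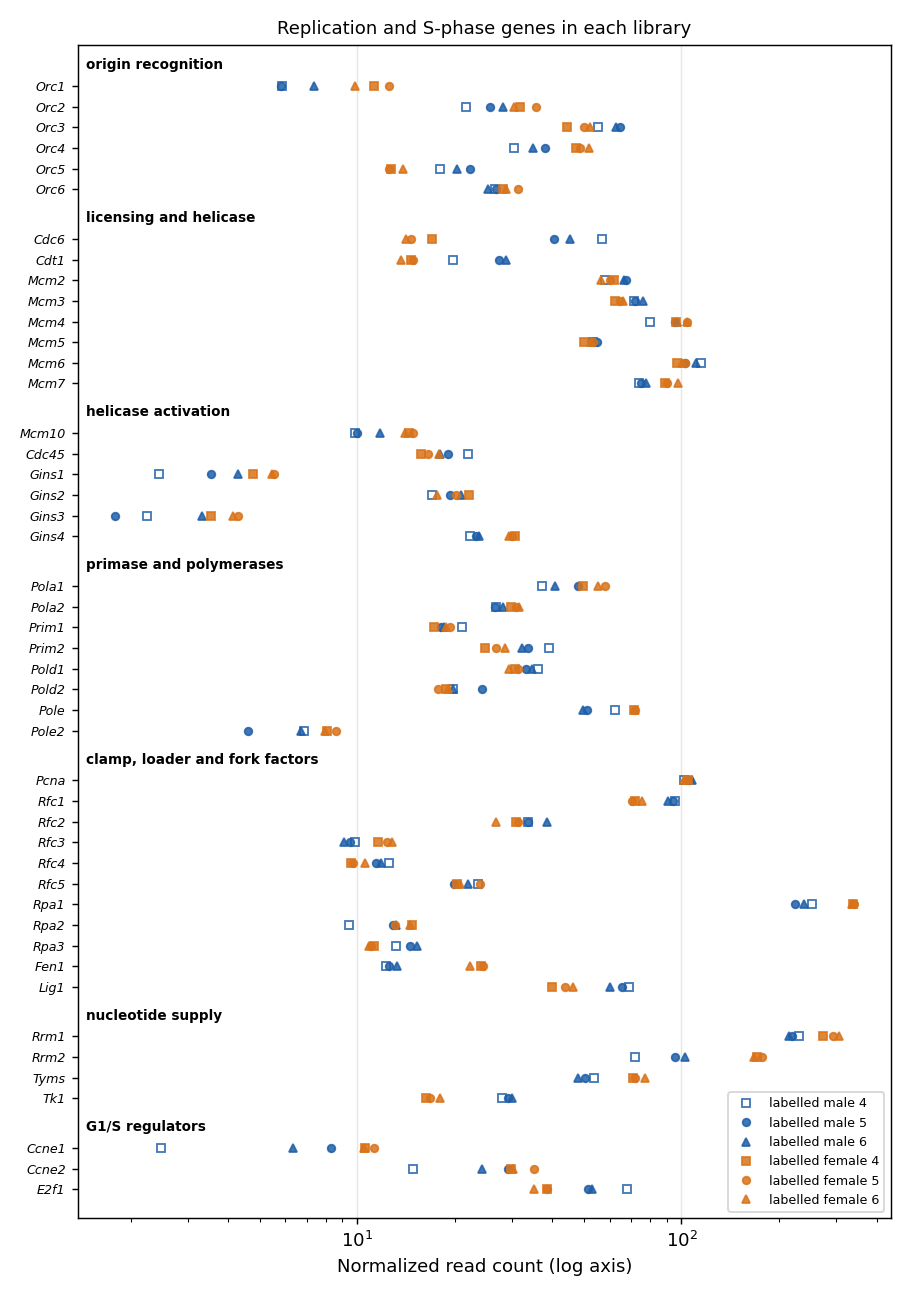
Normalized read count (x, log axis) of each of the 46 genes (y, grouped by role) in each library. Blue marks are libraries labelled male and orange marks the female-labelled ones, squares, circles and triangles stand for replicates 4, 5 and 6, and the open square is male replicate 4. In most of the Mcm2-7 rows the groups lie close together, whereas the Cdc6, Rrm2 and Fen1 rows are clearly parted.

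Among the 3 regulators that open S phase, E2f1 was lower, Ccne1 was higher and Ccne2 was not called, where 69.3% of all genes tested were called. In what follows the values are those of replicates 4, 5 and 6 in that order, and where sets of values are joined by "against" the female-labelled libraries come first. E2f1, the founding E2F activator, was read at 67.9, 51.5 and 52.8 in male replicates 4, 5 and 6 and at 38.3, 38.5 and 35.1 in the female-labelled libraries. Every female-labelled library was below every one labelled male, with means of 37.3 ± 1.91 and 57.4 ± 9.13 (SD, n = 3) and a log2 fold change of -0.60 (SE 0.11, adjusted p 0.00133 by limma). Ccne1, a cyclin that drives the kinase Cdk2 at the start of S phase, was at 10.5, 11.2 and 10.5 in the female-labelled libraries against 2.49, 8.27 and 6.32 in the male-labelled ones. It was higher by a log2 fold change of 0.93 (SE 0.31, adjusted p 0.0263 by limma). Male replicate 4 lay far below the other males, the groups did not overlap, and the call was lost without female replicate 4, 5 or 6 (adjusted p by limma of 0.0693, 0.0739 and 0.0664). Without male replicate 4 it was called with a smaller log2 fold change, 0.51. Ccne2, the second E cyclin, was at 29.8, 35.1 and 30.3 against 14.8, 29.2 and 24.3. Its log2 fold change of 0.51 (SE 0.21) missed the threshold (adjusted p 0.0594 by limma), with a 95% interval before adjustment of 0.02 to 0.996. The groups did not overlap, male replicate 4 was again the lowest, and the gene, which shares 17.4% of its 50-base words with Ints8 and so has an uncertain value, was called higher without male replicate 4 (0.24, adjusted p 0.0499 by limma) or male replicate 5 (0.71, adjusted p 0.0124 by limma).

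Of the 6 origin recognition genes, 3 were called higher and 2 lower, where 34.6% of all genes tested were called in each direction. Orc1, an ATP-binding subunit whose level is known to change through the cell cycle, had the largest change of the 6, from 5.85, 5.83 and 7.35 in the male-labelled libraries to 11.2, 12.5 and 9.83 in the female-labelled ones. The groups did not overlap, and the log2 fold change was 0.73 (SE 0.13, adjusted p 0.000991 by limma). Orc5 was lower, at 12.7, 12.5 and 13.9 against 18.0, 22.3 and 20.3, a log2 fold change of -0.59 (SE 0.10, adjusted p 0.000923 by limma). Orc4 was higher, at 47.1, 48.5 and 52.0 against 30.4, 37.8 and 34.8, with a log2 fold change of 0.51 (SE 0.09, adjusted p 0.00117 by limma). All 3 of these subunits were parted in every library. Orc2 was higher (0.37) and Orc3 lower (-0.31). The call of Orc2 was lost without female replicate 5 (adjusted p 0.0685 by limma) and that of Orc3 without female replicate 4 (0.0520). Orc6 had the smallest change of the 6, at 28.1, 31.4 and 28.7 against 26.6, 26.8 and 25.4, and was not called (0.16, adjusted p 0.0960 by limma). Per kilobase of the longest coding transcript, the mean level in the male-labelled libraries ran from 2.10 for Orc1 to 26.4 for Orc3, so Orc1 was the scarcest subunit in both groups (3.71 in the female-labelled libraries). Of the 50-base words of Orc2, 21.6% also occur in transcripts of Nif3l1, which makes its value uncertain.

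Both loaders of the helicase were lower, and of the 8 genes of licensing and the helicase 4 were called (50%, against 69.3% of all genes tested). Cdc6, the ATPase that brings the helicase to the origin, was read at 56.9, 40.4 and 45.4 in the male-labelled libraries and at 17.1, 14.7 and 14.1 in the female-labelled ones, which is 32.1% of the male mean. The groups were far apart, with a log2 fold change of -1.57 (SE 0.13, adjusted p 1.40e-05 by limma), the largest in size of the 46. Cdt1, the loading factor that is blocked by geminin and degraded in S phase, was at 14.6, 14.9 and 13.6 against 19.7, 27.5 and 28.7. It was lower (log2 fold change -0.76, SE 0.14, adjusted p 0.00126 by limma), and male replicate 4 lay between the other males and the females. Male replicate 4 was thus the highest male in Cdc6 and the lowest in Cdt1. The ratio of Cdt1 to Cdc6 within a library was 0.347, 0.680 and 0.632 in the male-labelled libraries and 0.856, 1.01 and 0.966 in the female-labelled ones. An exact two-sided permutation test of this ratio gave p = 0.1, the smallest that 3 against 3 libraries allow.

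Of the 6 genes of the Mcm2-7 ring, Mcm7 was called higher, Mcm3 lower and 4 were not called, so that 33.3% were called against 69.3% of all genes tested. Mcm7 was at 74.1, 75.0 and 77.5 in the male-labelled libraries and 89.0, 90.0 and 97.4 in the female-labelled ones, with no overlap and a log2 fold change of 0.28 (SE 0.06, adjusted p 0.00349 by limma). Mcm5 had the smallest change of the ring with all 6 libraries fitted, at 50.2, 53.4 and 52.6 against 53.3, 55.1 and 53.9, and its groups overlapped (-0.05, 95% interval -0.19 to 0.09, adjusted p 0.447 by limma). Mcm3 was lower by -0.18 (adjusted p 0.0253 by limma), a call lost without male replicate 5, male replicate 6, female replicate 4 or female replicate 5, with an adjusted p of up to 0.101. Mcm2 (-0.10), Mcm4 (0.16) and Mcm6 (-0.13) were not called, and without male replicate 4 Mcm2 was called lower (-0.17, adjusted p 0.0250 by limma) and Mcm4 was at 0.07. Summed over the 6 genes, the normalized read count was 451, 467 and 482 in the male-labelled libraries and 456, 474 and 477 in the female-labelled ones, with overlapping groups (exact two-sided permutation p = 0.9). Per kilobase, the mean levels of the 6 lay between 16.0 for Mcm5 and 25.5 for Mcm7 in the male-labelled libraries, and between 15.4 and 31.1, for the same genes, in the female-labelled ones. Mcm7 shares 34.2% of its 50-base words with Gm5487, Ap4m1 and Cops6, which makes its value uncertain. Ap4m1 went the opposite way, at 7.87 to 9.55 in the female-labelled libraries against 13.1 to 15.3 in the male-labelled ones.

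**Figure D2:**
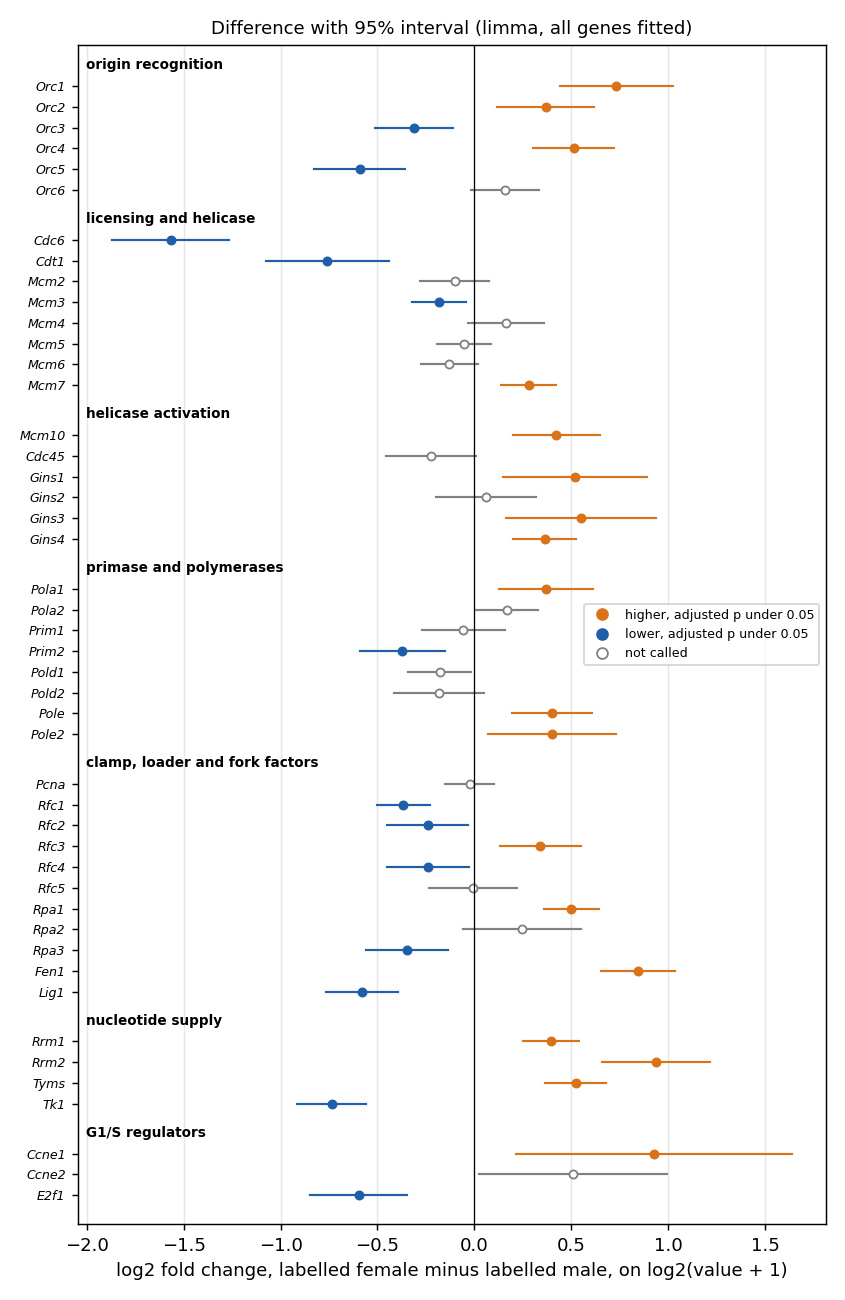
log2 fold change of each gene, libraries labelled female minus the male-labelled ones, on log2(value + 1) (x), by role (y). Points are limma estimates and bars their 95% intervals, orange where called higher, blue where called lower, and open grey where not called; Cdc6 lies farthest from 0, at -1.57.

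Of the 6 genes of helicase activation, 4 were called higher and none lower, which is 66.7% called where 69.3% of all genes tested were, 34.6% of them higher. Gins3, a GINS subunit with the lowest level per kilobase of the 46 (0.973 in the male-labelled libraries), was at 2.24, 1.79 and 3.32 in the male-labelled libraries and 3.53, 4.29 and 4.13 in the female-labelled ones (0.55, SE 0.17, adjusted p 0.0183 by limma). Gins1 was at 4.77, 5.53 and 5.46 against 2.45, 3.55 and 4.27 (0.52, SE 0.16, adjusted p 0.0199 by limma). Both genes were parted in all libraries but rest on few reads, and their calls did not outlast the loss of 1 library. That of Gins3 was lost without male replicate 5, female replicate 5 or female replicate 6 and that of Gins1 without female replicate 5 or 6, with adjusted p by limma between 0.0602 and 0.0681. Mcm10, which bridges the helicase and polymerase alpha, was at 14.4, 14.9 and 14.1 against 9.87, 9.99 and 11.8, a log2 fold change of 0.42 (SE 0.10, adjusted p 0.00464 by limma). Gins4 was higher by 0.36 (adjusted p 0.00186 by limma) and Cdc45, the partner that stays on the moving helicase, was not called (-0.22, adjusted p 0.0771 by limma) and was at -0.14 without male replicate 4. Gins2 was at 22.2, 20.1 and 17.7 against 17.0, 19.3 and 20.9, with overlapping groups and no call (0.06, adjusted p 0.643 by limma). It shares 70.3% of its 50-base words with Gse1, which makes its value uncertain. Gse1 itself was lower, at 42.3, 44.3 and 45.4 against 49.5, 60.7 and 59.9 (-0.35, adjusted p 0.00755 by limma).

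Of the 8 primase and polymerase genes, 3 were called higher and 1 lower, all by a log2 fold change under 0.5 in size. That is 50% called, against 69.3% of all genes tested. Pole, the catalytic subunit of the leading-strand polymerase epsilon, was at 62.3, 51.2 and 49.8 in the male-labelled libraries and 71.5, 72.1 and 72.0 in the female-labelled ones. The female values were nearly equal, at 71.9 ± 0.291 against 54.5 ± 6.85 (SD, n = 3), and the log2 fold change was 0.40 (SE 0.09, adjusted p 0.00376 by limma). Its partner Pole2 was at 8.09, 8.62 and 7.93 against 6.84, 4.61 and 6.71 (0.40, SE 0.14, adjusted p 0.0344 by limma). Pole and Pole2 were thus higher in each female-labelled library, as were the small subunits Pole3 (0.34, adjusted p 0.0148 by limma) and Pole4 (0.30, adjusted p 0.0153 by limma) of the same enzyme, which are on the list of further replication genes. The call of Pole2 was lost without male replicate 5 or any 1 of the female replicates (adjusted p by limma 0.0685 to 0.105), and its log2 fold change was 0.24 without male replicate 5. Prim2, the large primase subunit, was lower at 24.8, 26.9 and 28.6 against 38.9, 33.7 and 32.3 (-0.37, SE 0.09, adjusted p 0.00768 by limma). Prim1, the catalytic primase subunit, had overlapping groups at 17.2, 19.4 and 18.8 against 21.1, 18.1 and 18.5 (-0.06, adjusted p 0.610 by limma). Pola1, the catalytic subunit of polymerase alpha, encoded on chromosome X, was higher (0.37, adjusted p 0.0127 by limma), a call lost without female replicate 5 (0.0572). Pola2 (0.17), Pold1 (-0.18) and Pold2 (-0.18), the latter 2 from polymerase delta, were not called, with limma adjusted p of 0.0576, 0.0515 and 0.136, and Pold2 was at -0.09 without male replicate 5.

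Of the 11 clamp, clamp loader and other fork genes, 3 were called higher and 5 lower, among them the 2 that finish the lagging strand. The share called, 72.7%, lies near that of all genes tested, 69.3%. Fen1, the nuclease that trims the flap before pieces are joined, was at 12.2, 12.5 and 13.2 in the male-labelled libraries and 24.1, 24.4 and 22.2 in the female-labelled ones. The groups were well apart and tight, with a log2 fold change of 0.84 (SE 0.08, adjusted p 3.57e-05 by limma). Lig1, the ligase that seals the nick after Fen1, was lower at 40.0, 43.6 and 46.2 against 69.1, 65.7 and 60.4 (-0.58, SE 0.08, adjusted p 0.000272 by limma). Both differences held in every library and in each fit that left out 1 library. Of the 50-base words of Fen1, 81.2% also occur in Gm10143 or Tmem258, so how reads were shared between these genes bears on its value. Tmem258 was read at 26.4, 27.9 and 25.8 in the female-labelled libraries and 35.2, 35.7 and 36.3 in the male-labelled ones, the opposite direction to Fen1.

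Single-stranded DNA is coated by the 3 subunits of replication protein A, of which 1 was called higher, 1 lower and 1 not called, where 69.3% of all genes tested were called. Rpa1, the large subunit that contacts DNA, was at 253, 224 and 239 in the male-labelled libraries and 338, 340 and 335 in the female-labelled ones, a log2 fold change of 0.50 (SE 0.06, adjusted p 0.000133 by limma). Rpa3, the smallest subunit, was lower (-0.35, adjusted p 0.00934 by limma), and Rpa2, the subunit phosphorylated at stalled forks, was not called (0.25, adjusted p 0.130 by limma) and was at 0.10 without male replicate 4. Per kilobase the mean of Rpa1 in the male-labelled libraries was 47.0, that of Rpa3 21.4 and that of Rpa2 6.53.

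Pcna, the sliding clamp that tethers the polymerases, was at 102, 105 and 108 in the male-labelled libraries and 105, 103 and 102 in the female-labelled ones. The groups overlapped, and the 95% interval of the log2 fold change ran from -0.15 to 0.10 (-0.02, adjusted p 0.706 by limma). Among the 5 clamp loader genes, Rfc1 (-0.37, adjusted p 0.000670 by limma), Rfc2 (-0.24, 0.0431) and Rfc4 (-0.24, 0.0455) were called lower and Rfc3 higher (0.34, 0.00927). That is 80% called, against 69.3% of all genes tested, of which 34.6% were lower. Rfc5 was at 20.3, 23.9 and 20.8 against 23.5, 19.9 and 21.9 and had the smallest change of all 46 genes with all 6 libraries fitted (-0.01, adjusted p 0.949 by limma). The calls of Rfc2 and Rfc4 were each lost in 5 of the 6 fits that left out 1 library (adjusted p by limma up to 0.152 and 0.129). Rfc2 kept its call without male replicate 4 and Rfc4 without female replicate 6. Sequence shared with other genes made up 31.8% of the 50-base words of Pcna, 23.0% of those of Rfc5, 19.8% of those of Rfc2 and 16.6% of those of Rpa3, and these values are uncertain.

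All 4 genes of nucleotide supply were called, 3 of them higher and Tk1 lower, where 69.3% of all genes tested were called. Rrm2, the regulated subunit of ribonucleotide reductase, which makes deoxyribonucleotides, rose from 71.8, 95.4 and 103 in the male-labelled libraries to 171, 177 and 167 in the female-labelled ones. The log2 fold change was 0.94 (SE 0.12, adjusted p 0.000179 by limma), with male replicate 4 the lowest. Rrm1, the large subunit of the same enzyme, was at 274, 293 and 306 against 230, 219 and 215 (0.39, SE 0.06, adjusted p 0.000622 by limma). The ratio of Rrm2 to Rrm1 was 0.313, 0.436 and 0.479 in the male-labelled libraries and 0.624, 0.605 and 0.545 in the female-labelled ones, with no overlap (exact two-sided permutation p = 0.1, the smallest possible).

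Thymidylate reaches the fork by synthesis through Tyms or by salvage through Tk1. Tyms was higher, at 70.7, 71.9 and 77.0 against 53.6, 50.4 and 48.0, with a log2 fold change of 0.52 (SE 0.07, adjusted p 0.000203 by limma). Tk1 was lower, at 16.3, 16.8 and 18.0 against 27.9, 29.1 and 30.1, with a log2 fold change of -0.74 (SE 0.08, adjusted p 5.60e-05 by limma). The ratio of Tyms to Tk1 was 4.34, 4.28 and 4.29 in the female-labelled libraries and 1.92, 1.73 and 1.597 in the male-labelled ones (exact two-sided permutation p = 0.1, the smallest possible). Because Tyms was higher and Tk1 lower in every female-labelled library, the ratio had to part the groups. Its permutation test was thus settled in advance and adds nothing to the calls of the 2 genes. Each of the 4 genes kept its call in every fit that left out 1 library.

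**Figure D3:**
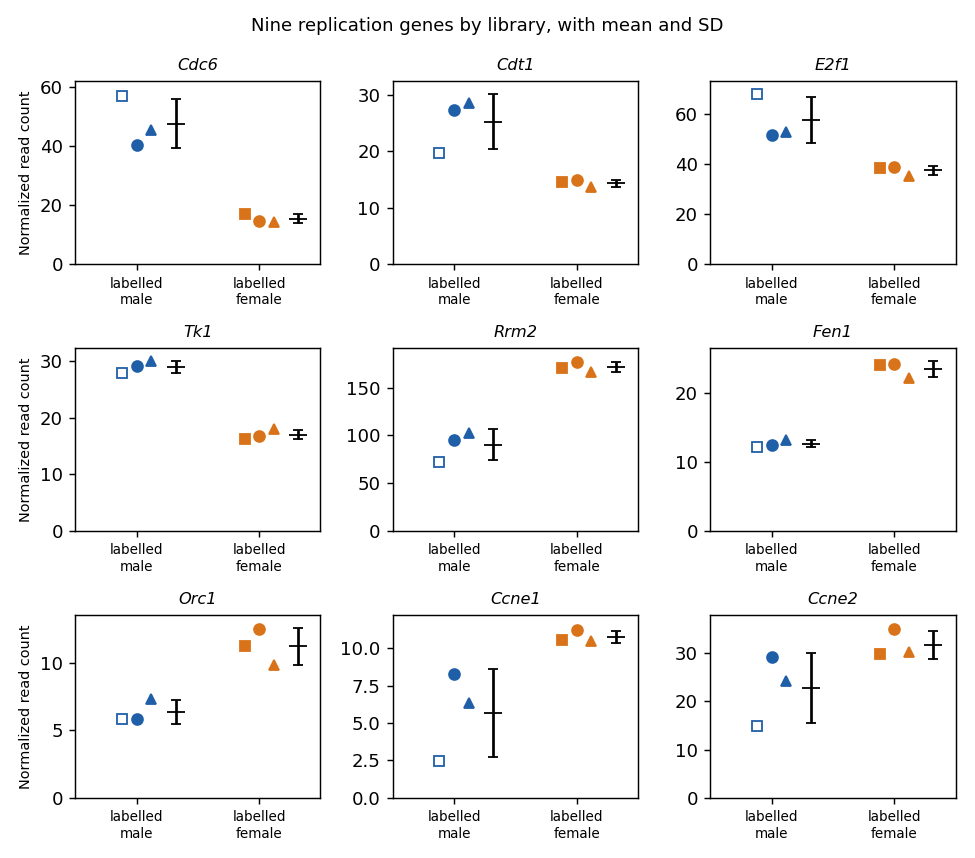
Normalized read count (y, linear axis from 0) of 9 genes in each library, with squares, circles and triangles for replicates 4, 5 and 6 and the open square for male replicate 4. Black marks are the group mean with its SD (n = 3). Cdc6, Cdt1, E2f1 and Tk1 are lower and Rrm2, Fen1, Orc1, Ccne1 and Ccne2 higher in all 3 libraries labelled female. Ccne1 and Ccne2 are spread widely among the male-labelled libraries, and Ccne2 was not called.

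Summed over the 46 genes, the normalized read count was 2114, 2121 and 2147 in the male-labelled libraries and 2292, 2376 and 2364 in the female-labelled ones. As a share of all reads this was 0.218% to 0.224% against 0.183% to 0.195%, with no overlap (exact two-sided permutation p = 0.1, the smallest possible). The rise of 217 in the mean sum was smaller than that of Rpa1, Rrm1 and Rrm2 alone, which came to 250.2. The other 43 genes summed to 1578 in the male-labelled libraries and 1544 in the female-labelled ones.

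The spread was larger among the male-labelled libraries for these genes as for all genes, a difference that was not tested. For the 46 genes the median coefficient of variation was 8.36% among them and 4.96% among the female-labelled libraries, and 32 of the 46 (69.6%) varied more among the males. Over all genes tested the medians were 9.82% and 6.24%, and 66.0% varied more among the males. Male replicate 4 was below both other males for 23 genes, above both for 17 and between them for 6. Without it, 32 of the 46 genes were called, 30 of them among the 31, while the count over all genes went from 8704 to 9113.

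In the authors' deposited table, 3 of the 46 genes had a false discovery rate under 0.05, where 25.8% of all genes in that table did. They were Cdc6 with a fold change of -3.11, Rrm2 with 1.91 and Fen1 with 1.86 in the authors' deposited table, all in the direction found here. For Orc1, Cdt1, E2f1 and Tk1 the authors' deposited table gives false discovery rates of 0.0596, 0.0807, 0.121 and 0.145. Other genes called here lay farther from the threshold there, such as Rpa1 (0.157), Lig1 (0.228), Rfc1 (0.428) and Mcm3 (0.692). None of the 31 genes called here passed in the authors' deposited table apart from Cdc6, Rrm2 and Fen1.

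Other genes of the pathway were set beside these from 3 lists. Of 38 further replication genes, 15 were called higher and 7 lower, with a median log2 fold change of 0.15. That is 57.9% called, against 69.3% of all genes tested and 34.6% in each direction. The largest changes upward were those of Rrm2b, the ribonucleotide reductase subunit induced by p53, at 1.35 (32.7, 32.7 and 34.9 against 11.6, 13.3 and 12.7, adjusted p 2.61e-06 by limma), and of Chtf8, part of an alternative clamp loader, at 0.92 (adjusted p 4.68e-06 by limma). The largest downward were those of Timeless, a fork protection protein, at -0.61 (adjusted p 0.000974 by limma), and Uhrf1, which helps to copy DNA methylation, at -0.54 (adjusted p 0.00108 by limma). Without female replicate 6, 14 of the 38 were called, 8 of them higher, where the count over all genes fell from 8704 to 7644 (higher from 4353 to 3597). Without female replicate 5, 9 of the 38 were higher, against 3497 of all genes.

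Of 30 genes of the retinoblastoma and E2F pathway and of control of the step from G1 to S phase, 16 were called higher and 9 lower. Their median log2 fold change was 0.35. That is 83.3% called, against 69.3% of all genes tested and 34.6% in each direction. Cdc25a, the phosphatase that activates Cdk2, was at 27.0, 27.4 and 25.8 in the female-labelled libraries against 9.50, 9.91 and 9.04 (1.40, adjusted p 1.84e-06 by limma), and E2f7, an E2F repressor, was higher by 1.25 (adjusted p 1.99e-05 by limma). The cyclin-dependent kinase inhibitors Cdkn1b, known as p27, and Cdkn1a, known as p21, were lower. Cdkn1b was at 45.0, 50.7 and 55.8 against 288, 249 and 242 (-2.34, adjusted p 2.86e-07 by limma) and Cdkn1a at 458, 482 and 448 against 881, 987 and 1016 (-1.05, adjusted p 4.58e-06 by limma). In each of these genes the groups were parted in all 6 libraries.

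Mitosis genes had a median of -0.34, with 15 of 24 called lower and 5 higher, which is 83.3% called against 69.3% of all genes tested and 34.6% in each direction. Aurkb, a kinase of chromosome segregation, was lower by -0.77 (adjusted p 6.76e-05 by limma) and Ccnb2, a mitotic cyclin, by -0.71 (adjusted p 0.000114 by limma). Cenpe, a kinetochore motor, was higher by 1.64 (adjusted p 0.000322 by limma) and Mki67, the proliferation antigen Ki-67, by 1.23 (adjusted p 0.00233 by limma). The males were spread widely in both, with Mki67 at 232, 415 and 187 and Cenpe at 58.1, 88.5 and 40.1. Whether the lists differ from one another was not tested.

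**Figure D4:**
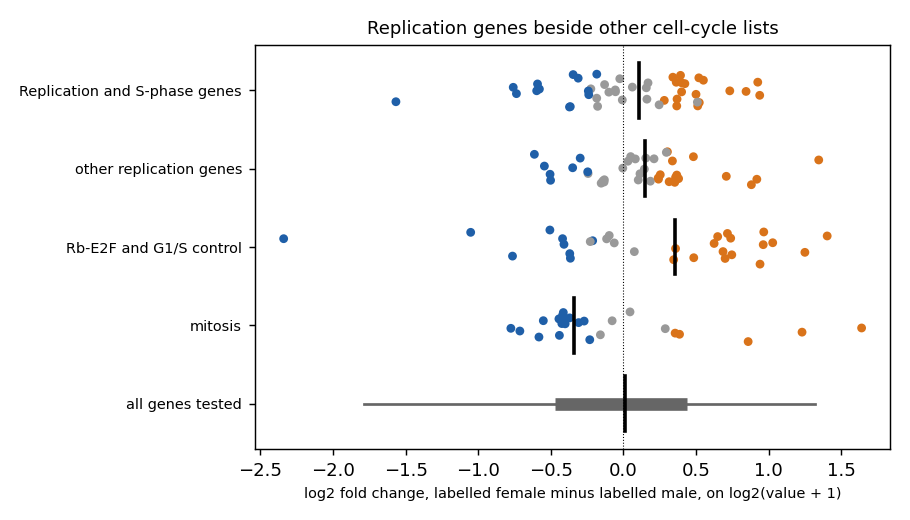
log2 fold change, libraries labelled female minus the male-labelled ones, on log2(value + 1) (x), for each gene of 4 lists (points, y), with the median of each list as a black bar. Orange points were called higher, blue lower and grey not called; the bottom row gives the median, the middle 50% (thick) and the 5th to 95th percentiles (thin) of all genes tested. Points of the replication list lie on both sides of 0 around a median of 0.11 (0.06 without male replicate 4), and those of mitosis around -0.34.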

How the data were processed

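RNA was selected for poly(A) and made into libraries with Kapa HyperPrep reagents, per the labels' protocols. The submitters' processing notes name Bowtie2, RSEM, edgeR and the build mm39, and their roles and versions are not given in the sources used here. The signal per gene that the authors deposited is a normalized read count. Dividing each column by its smallest value above 0 gave whole reads (within 0.01) for 100% of values. The authors' fold change is a signed score, and their p-values and false discovery rates were taken as deposited. All 6 value columns were matched to samples by title.

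limma 3.58.1 (R 4.3.3, eBayes with trend) was fitted to log2(value + 1) for genes reaching 1 in 3 or more libraries, two-sided, with Benjamini-Hochberg adjustment over all genes tested and a threshold of 0.05. Because the pseudocount damps low genes, fold changes of weakly expressed genes are understated. Alternatives were median-ratio and TMM scaling, a pseudocount of 0.1, no filter, a minimum of 10 reads per library, edgeR 4.0.16 and DESeq2 1.42.0 on the recovered reads, the replicate number as a block, a log2 fold change of at least 1, and each library left out. On reads simulated for this contrast with 200 genes changed 2-fold, limma recovered 198 over 12449 genes with 26 false calls. The simulated reads had the same relative spread for every gene, and only well-read genes were changed, all by exactly 2-fold. It therefore does not measure how often calls on these libraries, with smaller changes and uneven spread, are right.

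The members and lists were chosen with earlier results of these data known. Values in every library are given for the 3 largest called changes and the smallest change of each role, and for other lists the 2 largest called changes in each direction are named. Genes further described were chosen after their values were seen. Transcript lengths and shared 50-base words came from GENCODE M21 (longest coding transcript, both strands searched). Promoters are from RefSeq.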

Additional observations from a re-analysis of the deposited data

How the results depend on the processing

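Scaling by median-ratio or TMM factors, no filter, a pseudocount of 0.1 and edgeR on the recovered reads each gave 32 of the 46 replication genes called, the 31 and Pold1. At least 10 reads in every library gave the same 31, and DESeq2 gave 31, with Ccne2 in place of Rfc4. Over all genes these settings called 8698, 8657, 9085, 8673 and 8975, then 8236 and 8874, in the order named, against 8704. None of these alternatives changed the sign of a replication gene. A log2 fold change of at least 1 as well left, by its construction, 2589 genes called (1070 higher, 1519 lower). Among them were 1 replication gene (0 higher, 1 lower) and 1 further replication gene (1 higher, 0 lower). The list of retinoblastoma, E2F and G1 to S control kept 5 (3 higher, 2 lower) and that of mitosis 2 (2 higher, 0 lower). Same-numbered libraries deviated from their group means with correlations of -0.09, -0.03 and -0.17 for replicates 4, 5 and 6. These values cannot show whether same-numbered libraries were handled together, which the labels do not state. With the replicate block 28 replication genes were called (27 of the 31, and Ccne2), and 8314 of all genes.

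Leaving out each library gave from 22 (without female replicate 5) to 32 (without male replicate 4) replication genes called, where the counts over all genes were 7373 and 9113 against 8704 with all libraries, and a median log2 fold change from 0.060 to 0.14. Counts of further replication genes called ran from 14 to 22, and those called higher from 8 to 13. Among the named genes, signs changed only for some that were not called. Gins2 ran from -0.015 to 0.14 (-0.015 without male replicate 4, -0.013 without female replicate 4), Prim1 from -0.096 to 0.0088 (the latter without male replicate 4) and Ddx3y from -0.21 to 0.13 (the latter without male replicate 5). Rfc5 ran from -0.077 to 0.047, with 0.047, 0.036 and 0.019 without male replicate 4, female replicate 4 and female replicate 6. The cause was not tested. The fewest reads in a library were 47 for Gins3, 59 for Gins1 and 60 for Ccne1.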

Other observations

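Other promoter letters were counted in the same windows as a description, with no test. The CCAAT box (CCAAT, both strands) stood in 23 of 38 promoters of replication genes (60.5%), against 42.9% of the genes of the expression table. By direction it was found for 11 of 15 genes called higher, 3 of 11 called lower and 9 of 12 not called. The cell cycle homology letters TTTGAA and TTCGAA were found for 7 of 38 replication genes (18.4%) and 15 of 20 mitosis genes (75%), against 16.0% of the genes of the expression table. None of the 11 replication genes called lower held them, and 4 of the 15 called higher did.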
